A study of Mus musculus with 6 samples.

Results

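The cholesterol and fatty acid synthesis genes are 36 genes chosen by name for their role in making, sensing or exporting lipid. All 36 were present in the table of 17512 genes, and all 36 were among the 14773 genes with enough counts to be tested. They comprise 18 enzymes of sterol synthesis, 6 genes of sterol sensing and transport, 10 enzymes of fatty acid synthesis and 2 sterol exporters.

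RNA was sequenced from primary mouse embryonic fibroblasts (pMEFs) of C57bl6 background. The groups were 3 lines with intact Hat1 (HAT1 WT, lines 36, 47 and 78) and 3 lines in which Hat1 had been knocked out (HAT1 KO, lines 33, 41 and 72). HAT1 is the acetyltransferase that acts on newly made histone H4, and the study asked how its absence altered chromatin. RNA was sequenced there to learn whether lower chromatin accessibility in HAT1 KO came from lower transcription. Cells were cultured from midgestation embryos after the internal organs had been taken out, in medium with fetal bovine serum, so both groups were supplied with serum lipoprotein. No treatment was applied, and the cultures were bulk preparations of a whole embryo body, in which fewer cells of a type and less RNA per cell cannot be told apart.

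Cells make cholesterol from acetyl-CoA through mevalonate, squalene and lanosterol, and they make fatty acids from acetyl-CoA through malonyl-CoA. The transcription factors SREBP-2 (from Srebf2) and SREBP-1 (from Srebf1) are held in the endoplasmic reticulum by SCAP and the INSIG proteins when sterol is plentiful, and they switch on both sets of enzymes when sterol is scarce. In the opposite state, oxysterols activate the liver X receptors, which switch on the exporters ABCA1 and ABCG1. ABCA1 is best known in macrophages, where it loads cholesterol onto lipoprotein particles.

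Several properties of the libraries bear on the values that follow. Total counts ranged from 67720628 to 98786746 per library. Hat1 itself was 17.4, 23.0 and 20.1 CPM (counts relative to the scaled size of the library) in WT lines 36, 47 and 78 and 10.2, 10.0 and 10.3 CPM in KO lines 33, 41 and 72, with a log2 fold change of -0.99 (SE 0.12, adjusted p = 0.0376 in the edgeR test). WT line 36 was run in lane 8, WT line 47 with KO lines 33 and 72 in lane 6, and WT line 78 with KO line 41 in lane 7. High Y-linked expression was found in WT lines 36 and 47, where Ddx3y was 92.0 and 83.1 CPM, whereas it was 1.27 CPM in WT line 78 and at most 0.118 CPM in the KO lines. Genotype and the sex-linked pattern were thus unbalanced, and WT line 78 was the WT line that shared the pattern of the KO lines. Among the cell type markers, fibroblast genes were abundant (Col1a1 at 25022 to 43872 CPM). The 6 epithelial markers together summed to at most 2.49 CPM in any line, with Cdh1 the highest at up to 2.05 CPM, and the 5 endothelial markers to at most 12.6 CPM, most of it Kdr at 6.58 to 10.2 CPM. Pecam1 and Cdh5, defining markers of endothelium, were at most 0.742 CPM, from 8 to 62 counts per library. They had every KO line below every WT line (12.4% of all genes). Kdr and Tek overlapped between the genotypes, and Tek, at 0.207 to 1.66 CPM, was highest in KO line 33. Markers of myeloid cells were plainly present and lower in HAT1 KO, with a sum over 15 genes of 6027 to 6766 CPM in the WT lines and 2903 to 3739 CPM in the KO lines.

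The first comparison asked which of the 36 genes differed between the genotypes. None did at an adjusted p under 0.05 in edgeR's quasi-likelihood test, a level reached by 0.528% of all genes tested. At an unadjusted p under 0.05, Abca1 and Abcg1 were lower in HAT1 KO (2 of 36 genes, against 8.77% of all genes), and Acat2, Mvk, Acaca and Fads2 were higher (4 of 36, against 5.88%). With a change of at least 1.5-fold added to that rule, the 2 exporters stayed lower (4.62% of all genes) and Acat2 and Fads2 stayed higher (1.5% of all genes). With the DESeq2 Wald test, 3 of the 36 genes passed an adjusted p of 0.05 (5.88% of all genes did), namely Abca1 (adjusted p = 0.00700), Abcg1 (0.00750) and Fads2 (0.0499).

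The signs were less even than these calls. The log2 fold change of HAT1 KO over HAT1 WT was above 0 in 28 of the 36 genes, while 51.5% of all genes tested lay above 0. It was above 0 in 17 of 18 sterol enzymes (Tm7sf2 was the exception), in 9 of 10 fatty acid enzymes (Acly was the exception), in 2 of 6 sensing and transport genes and in neither exporter. The median log2 fold change was 0.19 for the sterol enzymes, 0.21 for the fatty acid enzymes, -0.062 for sensing and transport and -0.88 for export, beside 0.0085 for all genes tested. Leaving out 1 line moved the median of the sterol enzymes between 0.13 (without WT line 78) and 0.31 (without WT line 47), and that of the fatty acid enzymes between 0.13 (without KO line 33) and 0.30 (without WT line 47). Genes of a pathway vary together from line to line, so these counts describe 6 lines and not 36 independent observations.

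**Figure D1:**
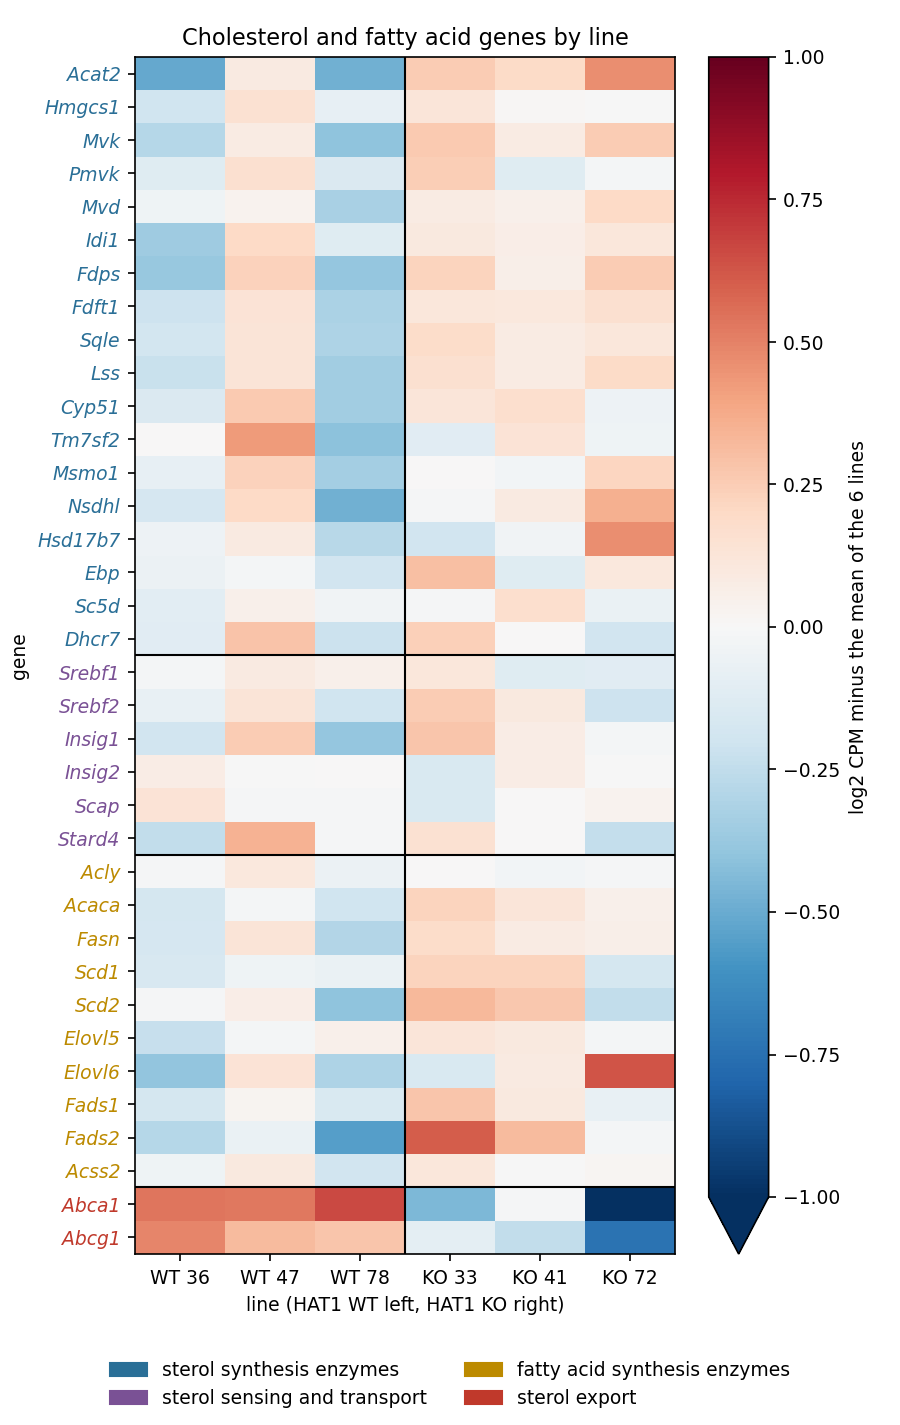
Level of each of the 36 genes in each line, as log2 CPM minus the mean of that gene over the 6 lines (red above, blue below; rows are genes in pathway order, columns are the 3 WT and the 3 KO lines). WT line 47 is the reddest WT column in the sterol enzymes, where it was the highest WT line for 18 of 18 genes, and the bottom rows, Abca1 and Abcg1, are red in all WT lines.

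The sterol enzymes were described in pathway order. Acat2, the cytosolic thiolase that joins the first acetyl-CoA units, lies on chromosome 17 (12942890 to 12960747, minus strand, GRCm38). It was 16.8, 25.5 and 17.2 CPM in WT lines 36, 47 and 78 and 28.7, 27.4 and 33.1 CPM in KO lines 33, 41 and 72. Every KO line lay above every WT line, although WT line 47 came close to KO line 41. The log2 fold change was 0.59 (SE 0.18, adjusted p = 0.238). Its close copy Acat3, which matches 65.6% of the transcript at 97.7% identity, had 0.286 to 1.23 CPM in the same libraries.

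Hmgcs1, which makes hydroxymethylglutaryl-CoA, is followed here as the step before mevalonate. It was 109, 139 and 118 CPM in WT lines 36, 47 and 78 and 136, 126 and 125 CPM in the KO lines 33, 41 and 72. The groups overlapped, with WT line 47 above all the others, and the log2 fold change was 0.076 (SE 0.10, adjusted p = 0.775). Mvk, mevalonate kinase, lies on chromosome 5 (114444269 to 114460591, plus strand). It was 19.2, 24.8 and 17.7 CPM in the WT lines and 28.1, 24.7 and 27.9 CPM in the KO lines. WT line 47 was level with KO line 41 and the other KO lines were above all WT lines, with a log2 fold change of 0.39 (SE 0.14, adjusted p = 0.302). Mvd, which decarboxylates mevalonate diphosphate, was 14.3, 15.1 and 11.8 CPM in the WT lines and 15.6, 15.3 and 16.9 CPM in the KO lines. These groups did not overlap, but WT line 47 and KO line 41 differed by less than the spread within either genotype, and the log2 fold change of 0.22 (SE 0.12) had an adjusted p of 0.455.

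Sqle, squalene epoxidase, which commits squalene to sterols, was 69.1, 85.8 and 63.4 CPM in the WT lines and 89.2, 83.1 and 85.1 CPM in the KO lines. The KO lines clustered tightly around the level of WT line 47, while WT lines 36 and 78 were lower. The same arrangement was found in Fdft1 (squalene synthase) at 39.2, 49.8 and 36.3 CPM in WT and 49.0, 48.7 and 50.6 CPM in KO. Lss, which closes the sterol rings, was 31.6, 40.3 and 29.0 CPM in WT and 41.2, 39.0 and 42.1 CPM in KO. The log2 fold changes of Sqle, Fdft1 and Lss lay between 0.24 and 0.28, with unadjusted p from 0.0763 to 0.0940. The remaining sterol enzymes (Pmvk, Idi1, Fdps, Cyp51, Tm7sf2, Msmo1, Nsdhl, Hsd17b7, Ebp, Sc5d and Dhcr7) had log2 fold changes from -0.050 (Tm7sf2) to 0.33 (Fdps), overlapped between the genotypes and had unadjusted p of 0.165 or more.

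Some of these counts could include reads of other genes, since the use of strand was not stated. Fdft1 shares 18.31% of its exon bases with Ctsb on the opposite strand, a cathepsin gene at 1218 to 1713 CPM in the KO lines and 1973 to 2742 CPM in the WT lines. Fdps has 5 processed pseudogenes that match 74.3% to 76.8% of its transcript, and 26.71% of its exon bases lie within another annotated gene on the same strand. Its level of 1.24 to 1.93 CPM is therefore uncertain. Tm7sf2, the sterol enzyme with a log2 fold change below 0, shares 12.08% of its exon bases with Vps51 on the same strand.

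The sterol enzymes shared much of their order among the lines. WT line 47 was the highest WT line in 18 of 18 of them, while it was the highest WT line in 27.2% of all genes tested. WT line 78 was the lowest of all 6 lines in 14 of 18 (20.0% of all genes), and WT line 36 was the lowest in the other 4 (12% of all genes), which were Acat2, Hmgcs1, Idi1 and Sc5d. All 3 KO lines lay above both WT line 36 and WT line 78 in 13 of 18 enzymes (14.2% of all genes). All 3 KO lines lay above all 3 WT lines only in Acat2 and Mvd, that is in 2 of 18 (9.59% of all genes). The SD over the WT lines was larger than the SD over the KO lines in 14 of 18 (37.3% of all genes). The 18 enzymes together summed to 602, 753 and 564 CPM in WT lines 36, 47 and 78 and to 728, 705 and 733 CPM in KO lines 33, 41 and 72. The means were 640 ± 99.7 CPM in WT and 722 ± 14.9 CPM in KO (SD, n = 3 each), so that the KO lines sat within the range of the WT lines.

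The comparison of genotypes in these enzymes thus depended on which WT line stood beside the KO lines. Within lane 6, where WT line 47 was run, the median log2 difference of KO minus WT over the 18 enzymes was -0.017. Within lane 7, where WT line 78 was run, it was 0.38. Without WT line 47, the number of the 36 genes higher in HAT1 KO at an unadjusted p under 0.05 became 12 (5.0% of all genes), and it included Cyp51, Fdft1, Idi1, Lss, Mvk, Nsdhl and Sqle. Without WT line 78 it was 0 (3.11% of all genes), and without WT line 36 it was 1 (3.02% of all genes). With lane as a covariate it was also 1, Acat2 (1.39% of all genes). Against WT line 78 alone, a comparison chosen after the data were seen, 13 of the 36 were higher (3.40% of all genes). WT line 47 was also the highest WT line in proliferation markers, with a sum over 12 genes of 542, 807 and 587 CPM in WT lines 36, 47 and 78, and of 1092, 937 and 844 CPM in KO lines 33, 41 and 72. Their part in the level of the sterol enzymes was not tested.

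The promoters of the 36 genes were also searched for shared letters. RefSeq promoter windows, from 250 bases before to 50 bases after an annotated start, were found for 28 of the 36 genes (not for Fdft1, Sqle, Fdps, Stard4, Scd1, Scd2, Fads1 and Abcg1). Searched on both strands, CCAAT, the letters bound by the factor NF-Y, occurred in 14 of 15 sterol enzymes with an entry (93.3%) and in 41.1% of the 27025 genes with an entry. GGGCGG, the GC box bound by Sp1, occurred in 14 of 15 as well, beside 38.2% of all genes with an entry. CCAAT also occurred in 4 of 5 sensing and transport genes and 4 of 7 fatty acid enzymes. The GC box occurred in 5 of 5 and 3 of 7 of these. The shares of all genes include genes that were not tested here. TCACNCCAC, a form of the sterol regulatory element that SREBPs bind, was found in Hmgcs1 alone among the 28 genes, and in 1.44% of all genes. No position was shared by matches of different motifs in the stretches shown, but in Fasn a forward and a reverse CCAAT match share letters. Hmgcs1 and Mvk are shown here because Hmgcs1 carried the sterol element and Mvk carried 5 CCAAT matches in its window, and Fasn is shown as a fatty acid enzyme with 3. The stretches hold some of the matches of each window. Capitals mark CCAAT, read as ATTGG on the other strand, and in Hmgcs1 also TCACCCCAC. The stretches lie at chr13:119690171-119690230 (plus strand, 180 to 121 bases before the start of Hmgcs1), chr5:114444144-114444259 (plus strand, 125 to 10 bases before the start of Mvk) and chr11:120824599-120824642 (minus strand, 95 to 52 bases before the start of Fasn) of GRCm38.p6.
Hmgcs1: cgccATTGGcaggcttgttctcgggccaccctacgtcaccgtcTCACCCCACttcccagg
Mvk: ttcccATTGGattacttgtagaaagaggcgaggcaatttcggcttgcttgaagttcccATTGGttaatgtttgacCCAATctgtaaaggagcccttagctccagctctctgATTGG
Fasn: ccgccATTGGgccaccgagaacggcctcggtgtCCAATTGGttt

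A match of this kind describes the letters of a window and is not a binding site. Likewise, the lack of a match to a fixed pattern in a window does not mean that a site is absent. Acat2 was the sterol enzyme without a CCAAT match in its window.

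**Figure D2:**
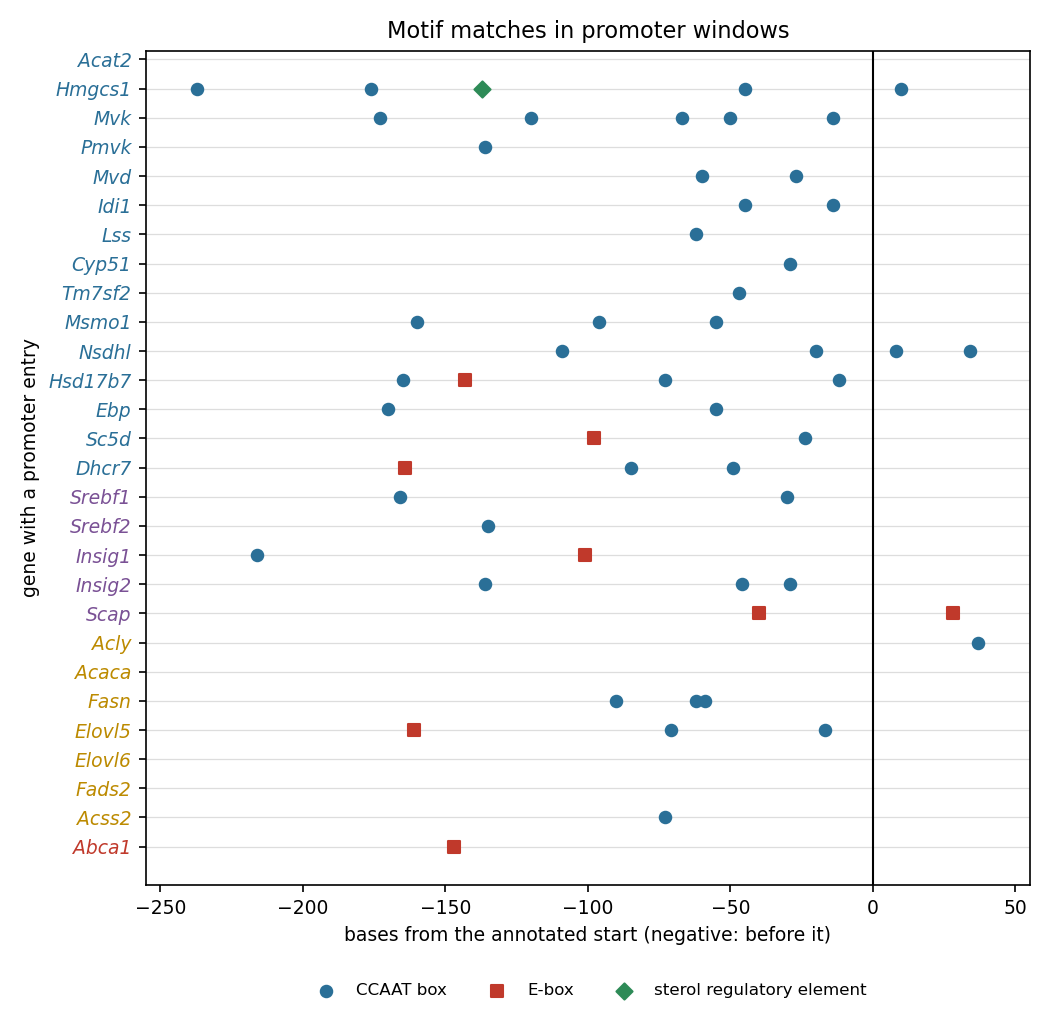
Matches of CCAAT (circles), CACGTG (squares) and TCACNCCAC (diamond), on either strand, in the promoter windows of the 28 genes with an entry; the horizontal axis is the distance in bases from the annotated start, negative before it. Where a gene has several annotated starts, the matches of each window are drawn in its row. CCAAT is present in 14 of the 15 sterol enzymes, and the diamond in Hmgcs1 is the single match of the sterol element.

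None of the genes that sense and move sterol had an unadjusted p under 0.05. Srebf2, the source of SREBP-2, was 216, 249 and 198 CPM in WT lines 36, 47 and 78 and 272, 243 and 197 CPM in KO lines 33, 41 and 72. Its groups overlapped, with KO line 33 highest, and the log2 fold change was 0.10 (SE 0.14, adjusted p = 0.787). Srebf1, the source of SREBP-1, was 103, 111 and 108 CPM in the WT lines and 113, 96.2 and 96.7 CPM in the KO lines. KO line 33 was its highest line and the other KO lines its lowest, with a log2 fold change of -0.074 (SE 0.083, adjusted p = 0.728).

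Insig1, which retains SCAP in the endoplasmic reticulum and is itself a target of SREBP, was 51.7, 70.4 and 45.0 CPM in the WT lines and 71.3, 62.1 and 58.1 CPM in the KO lines. It had the line order of the sterol enzymes, with WT line 47 highest and WT line 78 lowest among the WT lines, and a log2 fold change of 0.20 (SE 0.18, adjusted p = 0.657). Insig2, its relative, was 31.7, 30 and 30.2 CPM in WT and 27.0, 31.7 and 30 CPM in KO. Scap, the escort of the SREBPs, was 96.8, 87.4 and 87.6 CPM in WT and 79.2, 88.1 and 90.4 CPM in KO. Both genes varied little, with log2 fold changes of -0.053 (SE 0.082) and -0.077 (SE 0.079). Stard4, a cytosolic carrier of cholesterol, was 23.4, 35.4 and 27.5 CPM in WT and 30.9, 27.8 and 23.5 CPM in KO, with a log2 fold change of -0.071 (SE 0.18). WT line 47 was again the highest line in Stard4. Over the 6 genes, unadjusted p ran from 0.307 to 0.704, and none of the 6 separated the genotypes, beside 22.0% of all genes tested that did.

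The fatty acid enzymes were next compared. Acly, which makes cytosolic acetyl-CoA from citrate, was nearly level across the lines at 271, 294 and 262 CPM in WT lines 36, 47 and 78 and 273, 268 and 271 CPM in KO lines 33, 41 and 72. Acaca, acetyl-CoA carboxylase, which commits acetyl-CoA to fatty acids, lies on chromosome 11 (84129672 to 84401651, plus strand). It was 115, 128 and 113 CPM in the WT lines and 151, 141 and 134 CPM in the KO lines. All KO lines were above all WT lines, with WT line 47 nearest to them, and the log2 fold change was 0.26 (SE 0.079, adjusted p = 0.229). A processed pseudogene, Gm5182, matches 64.3% of the Acaca transcript at 99.2% identity, so its reads could have been split.

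Fasn, fatty acid synthase, was 374, 459 and 343 CPM in the WT lines and 476, 444 and 438 CPM in the KO lines. It had the arrangement of the sterol enzymes, with WT line 47 among the KO lines and the other WT lines lower, and a log2 fold change of 0.21 (SE 0.12, adjusted p = 0.482). Scd1, a desaturase that makes oleate, was 102, 111 and 109 CPM in WT and 133, 133 and 101 CPM in KO. Its relative Scd2 was 646, 682 and 493 CPM in WT and 817, 784 and 550 CPM in KO. In both desaturases KO lines 33 and 41 were above all WT lines and KO line 72 was not, and the log2 fold changes were 0.19 (SE 0.12) for Scd1 and 0.24 (SE 0.19) for Scd2.

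Fads2, the desaturase that starts the synthesis of long polyunsaturated fatty acids, lies on chromosome 19 (10062765 to 10101746, minus strand) as does Fads1. It was 34.0, 39.6 and 28.3 CPM in the WT lines and 63.2, 51.8 and 41 CPM in the KO lines. The genotypes did not overlap, although KO line 72 and WT line 47 lay close together. The log2 fold change was 0.61 (SE 0.19, adjusted p = 0.234), the highest of the 36 genes. Fads1, which acts later in the same series, was 123, 142 and 125 CPM in WT and 169, 149 and 132 CPM in KO, and its genotypes overlapped at KO line 72. Elovl6, an elongase, was the gene in which KO line 72 was highest, at 39.3 CPM beside 19.3 to 28 CPM in the other lines. Elovl5 and Acss2, an elongase and the cytosolic acetyl-CoA synthetase, had log2 fold changes of 0.13 (SE 0.090) and 0.085 (SE 0.12).

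**Figure D3:**
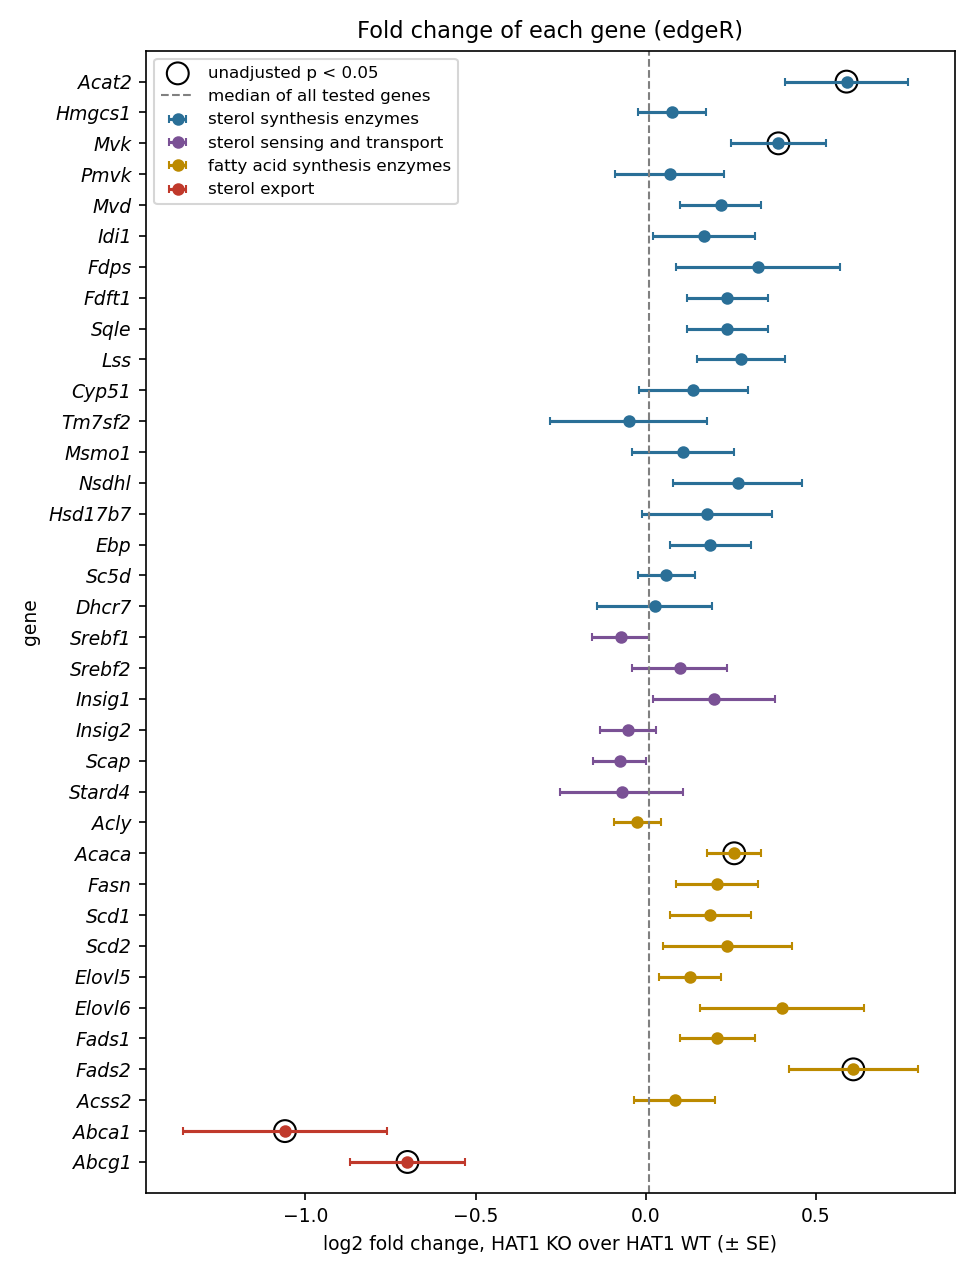
Log2 fold change of HAT1 KO over HAT1 WT for each of the 36 genes in the edgeR fit (points, with bars of 1 SE; n = 3 lines each), ordered by role and colored by group; rings mark an unadjusted p under 0.05, and the dashed line is the median of all tested genes at 0.0085. The 6 ringed genes are Acat2, Mvk, Acaca and Fads2 to the right and Abca1 and Abcg1 to the left.

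KO lines 33 and 41 were both above all WT lines in 6 of the 10 fatty acid enzymes (Acaca, Scd1, Scd2, Elovl5, Fads1 and Fads2), compared with 18.4% of all genes. KO line 72 was the lowest KO line in 7 of 10 (40.2% of all genes), and KO line 33 was the highest KO line in 8 of 10 (32.5% of all genes). The 10 enzymes together summed to 1764, 1973 and 1586 CPM in WT lines 36, 47 and 78 and to 2204, 2095 and 1796 CPM in KO lines 33, 41 and 72, a KO mean at 115% of the WT mean. When KO line 72 was left out, 6 of the 36 genes were higher at an unadjusted p under 0.05 (9.06% of all genes), namely Acaca, Acat2, Fads1, Fads2, Scd1 and Scd2. Within lane 6 the median log2 difference of KO minus WT over the fatty acid enzymes was 0.063, and within lane 7 it was 0.31. A total of 6 of the 10 (Acaca, Elovl5, Elovl6, Fads1, Fads2 and Scd1) were higher in KO within both lanes, as were 30.6% of all genes. The sums of the proliferation markers and of the fibroblast markers had the same order among the KO lines, from line 33 to line 72. Single proliferation markers differed, with Pcna highest in KO line 41 and Rrm2 in KO line 72. The part of proliferation or of fibroblasts in these values was not tested. Of the 6 adipocyte markers in the table, Plin1 was at most 0.124 CPM in any line and Fabp4 at most 2.41 CPM. Pparg was 6.12 to 17.3 CPM and, like Plin1 and Fabp4, overlapped between the genotypes. Cebpa, Lpl and Lipe had every KO line below every WT line (12.4% of all genes). The part of adipocyte-like cells in these values was not tested.

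The exporters went the other way. Abca1, which passes cholesterol and phospholipid to lipid-poor apolipoprotein, lies on chromosome 4 (53030787 to 53159895, minus strand). It was 573, 572 and 628 CPM in WT lines 36, 47 and 78 and 291, 393 and 165 CPM in KO lines 33, 41 and 72, from 12713 or more counts in each library. The WT lines lay close together, all KO lines were lower, and KO line 72 was the lowest. The means were 591 ± 32 and 283 ± 114 CPM (SD, n = 3 each), a KO level of 47.8% of WT, with a log2 fold change of -1.06 (SE 0.30, adjusted p = 0.203 in edgeR). Abcg1, which exports cholesterol to high-density lipoprotein, lies on chromosome 17 (31057675 to 31117988, plus strand). It was 67.2, 59.9 and 58.3 CPM in the WT lines and 44.8, 40.5 and 28.7 CPM in the KO lines. Again every KO line was below every WT line and KO line 72 was the lowest, with a KO level of 61.5% of WT and a log2 fold change of -0.70 (SE 0.17, adjusted p = 0.160). Across all genes tested, 12.4% had all KO lines below all WT lines.

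Both exporters were lower in KO within each lane (29.9% of all genes), by a median log2 difference of -1.06 in lane 6 and -0.60 in lane 7, and both kept an unadjusted p under 0.05 when any 1 line was left out. With WT line 78 as the single WT line neither had an unadjusted p under 0.05 (3.84% of all genes), while the log2 fold changes were -1.14 for Abca1 and -0.60 for Abcg1. The sum of the myeloid markers was lower in every KO line than in any WT line, as was that of the exporters. The adipocyte sum was lower as well, but Lpl and Cebpa were its largest parts in each line, and Fabp4 and Pparg overlapped between the genotypes. Some listed adipocyte markers were absent from the table of genes. Whether Lpl and Cebpa came from adipocyte-like or from other cells was not tested. The fibroblast sum had a KO mean at 100% of WT, but that mean joined unlike lines. KO line 33 reached 81812 CPM, KO line 41 70551 CPM and KO line 72 only 48334 CPM, beside 63318 to 71948 CPM in WT. KO line 72, the lowest line for both exporters, was also the lowest line in 7 of the 10 fibroblast markers (25.4% of all genes). The proliferation sum was 148% of WT, and the endothelial and epithelial sums overlapped between the genotypes. The sum of the myeloid markers was 6404, 6766 and 6027 CPM in WT lines 36, 47 and 78 and 3563, 3739 and 2903 CPM in KO lines 33, 41 and 72, a KO level of 53.2% of WT, beside 49.1% for the sum of the 2 exporters. In 14 of the 15 markers all KO lines were below all WT lines (12.4% of all genes), Cx3cr1 being the exception, and none of the 15 was near 0. Lyz2, a lysozyme of macrophages and the most abundant of these markers, was 2812 to 3134 CPM in WT and 1280 to 1623 CPM in KO, with a log2 fold change of -1.01 (SE 0.12, adjusted p = 0.0357). The 6 adipocyte markers in the table summed to 242, 287 and 460 CPM in the WT lines and 166, 173 and 148 CPM in the KO lines. That KO level was 49.2% of WT, and Lpl made up the largest part of the sum in each line. Lower were Lpl (log2 fold change -1.15, SE 0.36), Cebpa (-1.0, SE 0.20) and Lipe (-0.46, SE 0.17). Pparg (0.31, SE 0.44) and Fabp4 (0.025, SE 0.34) had log2 fold changes above 0, and Plin1 was not among the genes tested. The order of the lines was shared in part. Among the KO lines Abca1 followed the myeloid sum, highest in line 41 and lowest in line 72, while Abcg1 was highest in line 33. Among the WT lines the myeloid sum was lowest in line 78, where Abca1 was highest and Abcg1 lowest. Single markers varied in this respect. Adgre1, Cx3cr1, Itgam and Ptprc (4 of the 15) peaked, like Abca1, in line 78. Of the rest, 6 had their WT peak in line 36, and 5 had it in line 47. The part of myeloid cells, adipocyte-like cells or fibroblasts in the level of the exporters was not tested.

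**Figure D4:**
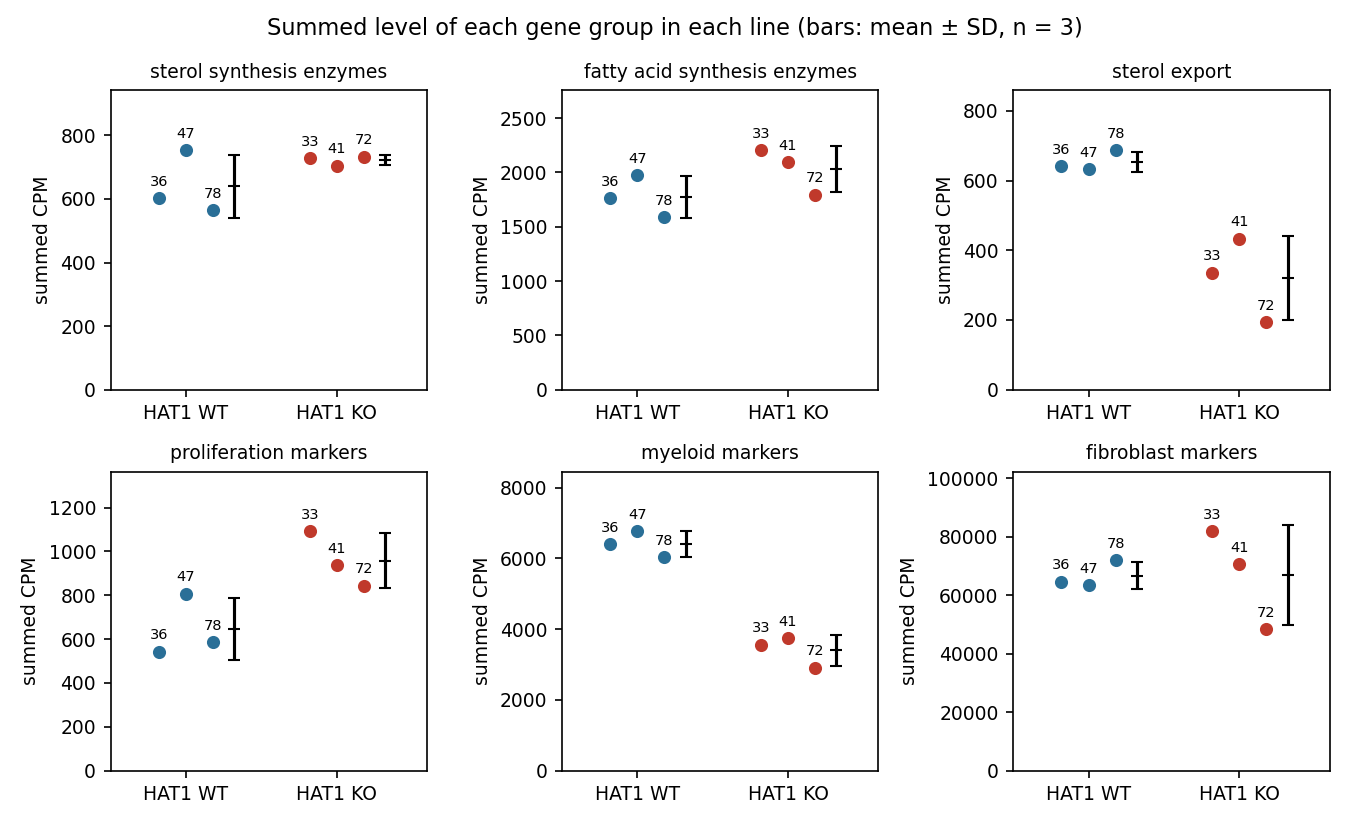
Summed CPM of each gene group in each line (points, labelled with the line number), with the mean ± SD over 3 lines beside them, for the sterol enzymes, fatty acid enzymes and exporters above and the proliferation, myeloid and fibroblast markers below. The exporters and the myeloid markers are lower in every KO line, whereas the sterol enzymes of the KO lines, at 705 to 733 CPM, lie inside the WT range of 564 to 753 CPM.

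The Abca1 window is shown because it was the exporter with an entry, and because it held the letters CACGTG, the E-box to which SREBP-1 and many other factors can bind, and no CCAAT. The E-box letters, searched on both strands, occurred in 7 of the 28 genes with an entry (25.0%) and in 8.09% of all genes. The GC box letters before it are left in lower case. The stretch lies at chr4:53160026-53160060 (minus strand, GRCm38.p6), 165 to 131 bases before the RefSeq start, with the E-box in capitals.
Abca1: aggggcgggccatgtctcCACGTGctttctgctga

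Levels of different genes were compared per kb of exon. In HAT1 WT, Scd2 was the highest of the 36 at 111 ± 18.4 CPM per kb (SD, n = 3), above 98.0% of the genes tested. Abca1 (57.1 ± 3.09), Acly (52.2 ± 3.10) and Fasn (35.8 ± 5.51 CPM per kb) came next, of which Abca1 and Acly differed by less than the sum of their SDs. In HAT1 KO, Abca1 stood at 27.3 ± 11.0 CPM per kb, below Acly at 51.3 ± 0.463 and Fasn at 41.4 ± 1.88 CPM per kb. Among the sterol enzymes Hmgcs1 was highest in WT at 26.6 ± 3.29 CPM per kb, followed by Cyp51 at 20.0 ± 4.49, whose ranges touch. Fdps (0.348), Acss2 (0.692) and Tm7sf2 (1.34 CPM per kb) were the lowest in WT, although the level of Fdps is uncertain because of its pseudogenes and overlap.

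**Figure D5:**
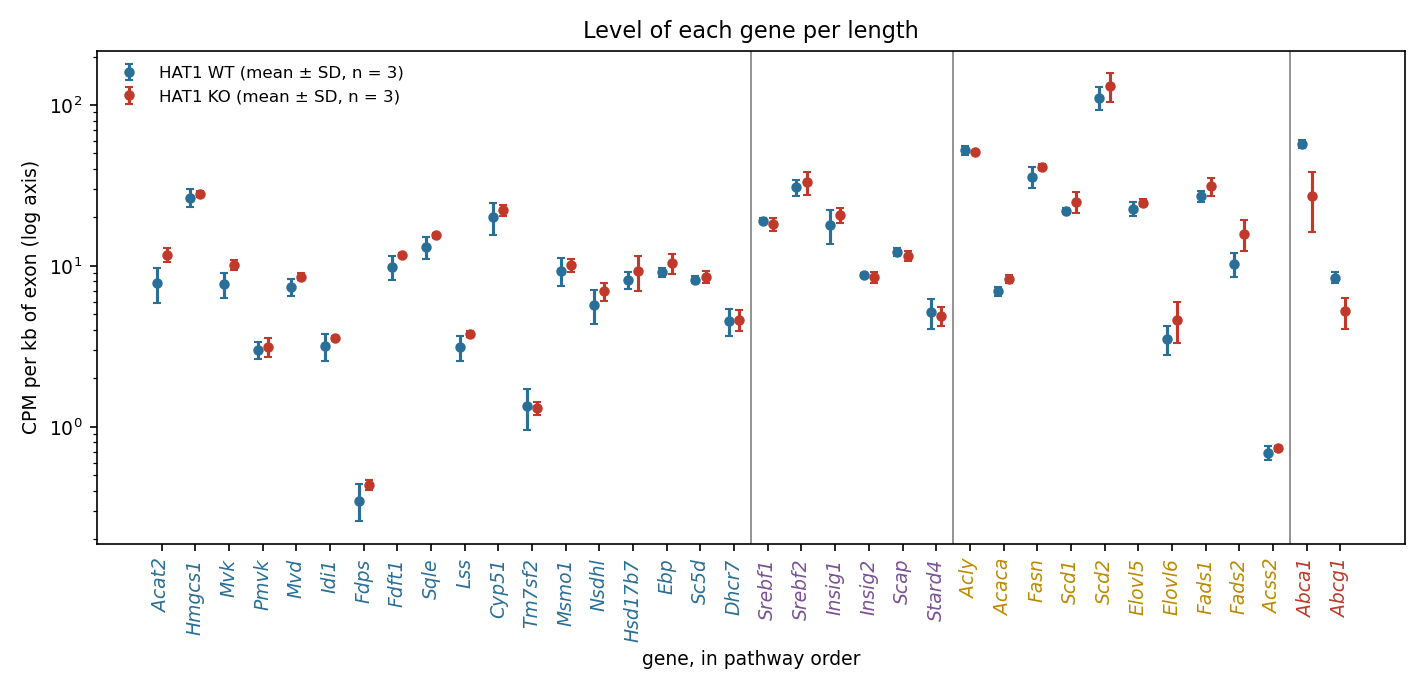
Level of each gene in CPM per kb of exon on a log axis, as mean ± SD over the 3 HAT1 WT lines and the 3 HAT1 KO lines, with genes in pathway order and vertical lines between the 4 groups. Scd2 is highest and Fdps, whose level is uncertain, is lowest, and Abca1 stands at 57.1 CPM per kb in WT and 27.3 in KO.

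The other genes of these pathways were taken from a list of 40 genes for lipid synthesis and sterol handling, of which 39 were tested. None passed an adjusted p of 0.05 in edgeR, 5 were lower at an unadjusted p under 0.05 and 2 were higher (8.77% and 5.88% of all genes), and the median log2 fold change was -0.0015. Npc1, which lets cholesterol leave the lysosome, was 176, 169 and 154 CPM in WT lines 36, 47 and 78 and 122, 126 and 123 CPM in KO lines 33, 41 and 72. It had the smallest p of the list, with a log2 fold change of -0.43 (SE 0.070, adjusted p = 0.0751), and its groups were well apart. Nr1h3, which encodes liver X receptor alpha, was 5.77, 7.38 and 7.80 CPM in WT and 4.81, 3.71 and 5.04 CPM in KO, with a log2 fold change of -0.63 (SE 0.19, adjusted p = 0.220).

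Mylip, which degrades lipoprotein receptors, was 54.7, 54.5 and 65.4 CPM in WT and 41.8, 46.8 and 42.0 CPM in KO. Cyp27a1, which makes an oxysterol, was 2.27, 3.15 and 2.54 CPM in WT and 1.09, 0.888 and 1.5 CPM in KO. These genes and Npc1 had every KO line below every WT line, and the log2 fold changes were -0.42 (SE 0.097) for Mylip and -1.19 (SE 0.27) for Cyp27a1. Acsl4, an acyl-CoA synthetase, was 85.5, 88.9 and 99.7 CPM in WT and 74.4, 79.5 and 62.5 CPM in KO. In contrast Nr1h2, which encodes the other liver X receptor, was 51.2 ± 3.93 CPM in WT and 51.2 ± 2.39 CPM in KO (SD, n = 3 each). The 2 higher genes were Tmem97, an SREBP target that binds NPC1, and Mid1ip1, an activator of acetyl-CoA carboxylase. Tmem97 was 22.4, 25.7 and 20.7 CPM in WT and 37.1, 33.1 and 27.7 CPM in KO (log2 fold change 0.51, SE 0.14, adjusted p = 0.193). Mid1ip1 was 29.6, 29.3 and 30.9 CPM in WT and 33.4, 33.4 and 37.2 CPM in KO, a shift of 0.21 on the log2 scale (SE 0.073). In both of these genes all KO lines lay above all WT lines.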

How the data were processed

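Total RNA of 6 pMEF lines had been made into TruSeq RNA v2 libraries, and the authors deposited a table of raw counts per gene. The deposited table also held the authors' own comparison, that is a log2 fold change, a log2 mean CPM, an F score and p-values and q-values, none of which were used. The submitters' processing notes name edgeR and mm10, while the aligner, counter, annotation and use of strand are not given in the sources used here. The 36 genes and all lists were chosen with earlier results of these data known.

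Counts of all 17512 genes were fitted with edgeR 4.0.16 in R 4.3.3 (filterByExpr, TMM scaling, glmQLFit and glmQLFTest, genotype alone, two-sided), with Benjamini-Hochberg adjustment over the 14773 genes kept and a threshold of 0.05. CPM are TMM-scaled, and the SE is the size of the log2 fold change divided by the square root of F, which is approximate. A line was 1 replicate, and the labels do not state separate embryos for each, so p-values measure the spread between these lines. An exact permutation test of 3 lines against 3 cannot give p under 0.1. Each member had 94 or more counts in every library. Fits were tested on simulated data. Values in each line were given for Hat1, for members with an unadjusted p under 0.05, no overlap or a 1.5-fold change, for a set of pathway landmarks, and for listed lipid genes with an unadjusted p under 0.05. Fdft1, Lss, Fads1, Nr1h2 and Elovl6 were added after their values were seen.

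Positions, exon lengths and overlaps came from GENCODE M21 on GRCm38, copies from blastn 2.17.0 at 90% identity over at least 30% of a transcript, and promoters from RefSeq on GRCm38.p6. Alternatives were DESeq2 1.42.0 (size factors, Wald test), library size alone, no filter or a mean of 50 counts, limma 3.58.1 voom with quality weights, lane, a 2-fold rule, each line left out, and, chosen after seeing the data, WT line 78 alone.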

Additional observations from a re-analysis of the deposited data

How the results depend on the processing

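No paired analysis was possible because the genotypes share no replicate numbers. Of the results for single genes, 444 kept their direction and side of the threshold, 22 in 14 genes passed it, 16 in 6 genes no longer did, and 22 in 11 genes changed sign. The number of the 36 genes at an adjusted p under 0.05 was 3 with the DESeq2 Wald test, by which 869 of 14773 genes passed (5.88%), and 0 with each other alternative. The number higher in KO at an unadjusted p under 0.05 was 1 with lane as a covariate, 13 with WT line 78 alone and 0 to 12 when a line was left out (0 without WT line 78, 12 without WT line 47). The number lower was 0 with WT line 78 alone and 2 to 2 when a line was left out. At 1.5-fold, the number higher was 1 with library size alone, 1 with voom, 0 with lane, 4 with WT line 78 alone, 0 at 2-fold and 0 to 2 when a line was left out, and the number lower was 0 with WT line 78 alone, 1 at 2-fold and 1 to 2 when a line was left out (1 without KO line 72). The median log2 fold change of the sterol enzymes was 0.43 with WT line 78 alone, and 0.13 to 0.31 when a line was left out. That of the fatty acid enzymes was then 0.13 to 0.30, and that of sensing and transport ran from -0.059 to 0.035. With WT line 78 alone, no other WT line measures the spread, which is assumed to be that of the KO lines. The cause of these shifts was not tested.

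Sign changes fell on Hsd17b7 (0.18 with all lines), Msmo1 (0.11), Srebf2 (0.10) and 8 genes closer to 0. They were Hmgcs1 (-0.015), Pmvk (-0.015) and Dhcr7 (-0.048) with lane, Msmo1 (-0.0052) and Hsd17b7 (-0.0076) with voom, and Tm7sf2 (0.42), Stard4 (0.0099) and Acly (0.064) with WT line 78 alone. When a line was left out, log2 fold changes ran from -0.042 to 0.18 for Pmvk, -0.23 to 0.19 for Tm7sf2, -0.014 to 0.28 for Msmo1, -0.027 to 0.31 for Hsd17b7, -0.0049 to 0.12 for Sc5d, -0.092 to 0.20 for Dhcr7, -0.0061 to 0.23 for Srebf2, -0.10 to 0.0084 for Insig2, -0.20 to 0.11 for Stard4 and -0.054 to 0.030 for Acly. Over all alternatives the adjusted p ran from 0.00700 to 0.729 for Abca1, 0.00750 to 0.772 for Abcg1, 0.0605 to 0.772 for Acat2, 0.171 to 0.776 for Mvk, 0.0876 to 0.785 for Acaca and 0.0499 to 0.784 for Fads2. How far depth limits the genes with few counts, such as Fdps, was not tested.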
